A study of Mus musculus with 6 samples.

Results

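The subject is a set of 38 mouse genes that encode chromatin remodelling and modifying proteins, out of 23420 genes counted. They were chosen by symbol, with earlier results of these data known, and the rule itself used no measured value. All 38 were found by symbol, and all 38 passed the filter on low counts, which kept 12257 genes of the table. RNA was sequenced from the transition zone of the E14.5 mouse lens, the band where epithelial cells stop dividing and start to become fibre cells. Embryos with the Le-Cre transgene alone gave the 3 libraries titled wild type, so the controls carry Cre as well. The other 3 libraries, titled Pea3 and called mutant here, came from embryos of genotype Le-Cre, Etv4-/-, Etv5 fl/fl, Etv1 fl/fl. Le-Cre is active in surface ectoderm of the eye, including the future lens, and acts on the floxed alleles there, whereas the Etv4-/- genotype is not limited to those cells. All embryos were of a mixed strain background, and the labels leave unsaid how many embryos went into each library. The p-values therefore measure only the spread between these libraries, which may be technical.

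DNA in the nucleus is wound around histones. Remodellers such as the BAF, ISWI and CHD enzymes use ATP to move or evict nucleosomes. Acetyltransferases and deacetylases add and remove acetyl groups on histone tails, Polycomb complexes silence developmental genes through methylation of histone H3 and ubiquitination of histone H2A, and Dnmt and Tet enzymes write and oxidise DNA methylation. Brg1, the product of Smarca4, is known to be needed for terminal differentiation of lens fibre cells, and the paralogous acetyltransferases Crebbp and Ep300 for formation of the lens from head ectoderm.

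The high mobility group gene Hmga2 had the largest difference between the groups of all 38 members, and Hmgb2 and the Polycomb gene Ezh2 varied widely between libraries of 1 group. The promoters of these genes are shown first, since the text turns on them, from 250 bases before the start to 30 bases after it, 5′ to 3′ on the strand of the gene, as RefSeq gives them for GRCm38.p6. This build differs from the mm9 build named in the submitters' processing notes. Hmga2 lies at chr10:120476440-120476719 on the minus strand, Ezh2 at chr6:47595001-47595280 on the minus strand, and Hmgb2 at chr8:57511593-57511872 on the plus strand. Capitals mark matches to a CCAAT box or to an E2F sequence.
Hmga2: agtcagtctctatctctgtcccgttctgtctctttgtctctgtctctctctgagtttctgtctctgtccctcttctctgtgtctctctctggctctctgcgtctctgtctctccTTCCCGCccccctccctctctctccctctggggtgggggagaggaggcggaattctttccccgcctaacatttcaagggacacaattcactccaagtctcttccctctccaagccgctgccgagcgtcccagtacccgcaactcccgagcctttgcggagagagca
Ezh2: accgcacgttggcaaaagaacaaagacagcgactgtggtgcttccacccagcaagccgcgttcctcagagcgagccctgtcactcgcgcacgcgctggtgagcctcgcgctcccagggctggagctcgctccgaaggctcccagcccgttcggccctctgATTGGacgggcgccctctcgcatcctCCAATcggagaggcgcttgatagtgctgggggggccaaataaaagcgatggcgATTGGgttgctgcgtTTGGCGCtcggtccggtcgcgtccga
Hmgb2: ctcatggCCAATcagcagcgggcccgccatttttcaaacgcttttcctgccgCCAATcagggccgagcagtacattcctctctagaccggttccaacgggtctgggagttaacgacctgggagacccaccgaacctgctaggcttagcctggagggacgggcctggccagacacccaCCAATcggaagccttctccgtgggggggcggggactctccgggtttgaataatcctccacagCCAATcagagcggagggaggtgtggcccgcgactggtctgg

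The motifs were chosen after the values were seen. The windows were searched on both strands for the CCAAT box (CCAAT), for an E2F sequence (TTCCCGC or TTGGCGC or TTCGCGC or TTGCCGC) and for a core shared by ETS factor sites (CCGGAA), the family to which Etv1, Etv4 and Etv5 belong. Hmgb2 held 4 CCAAT matches and Ezh2 held 3, and no matches overlapped in the 3 windows printed. Among all 32851 promoter windows, 11.1% held at least 2 CCAAT matches, as did 3 of the 41 windows of the members (7.32%), those of Ezh2, Hdac4 and Hmgb2. An E2F sequence was found in 7 of the 41 windows (17.1%), against 8.90% of all windows; its holders were Arid1a, Ctcf, Ezh2, Hmga2, Kdm5b, Smarcb1 and Suz12. The ETS core was found in 6 of 41 windows (14.6%) and in 14.2% of all windows. Its holders among the members were Arid1a, Chd8, Dot1l, Jarid2, Ncor1 and Smarca2, and none of the 3 promoters printed above held it. These windows cover 34 of the 38 members. A match describes letters in the window and does not show binding.

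The summed counts ran from 13364742 to 17301168 per library, so that 1 count stood for 0.0578 to 0.0748 CPM (counts scaled to a common library total), and a count of 0 in the shallowest library allowed up to 0.224 CPM (3 counts; counting error only). The targeted genes Etv1 and Etv5 lay between 45.4 and 70.7 CPM and between 168 and 245 CPM in controls, and between 21.6 and 29.0 CPM and between 82.9 and 116 CPM in mutants. Etv4 was at 2.13 to 3.21 CPM in controls and 3.71 to 4.92 CPM in mutants. Counts over a whole gene include exons that the deletions may leave in place, so they cannot check a genotype on their own. Before scaling, the lens crystallin gene Cryaa had 100909 to 162020 CPM, and 5 neural retina markers summed to at most 1.10 CPM, with Six6 at 0 throughout. Xist reached 711 counts in mutant library 1, with Ddx3y at 2; the other 5 libraries had at most 3 of Xist and 521 to 890 of Ddx3y, so this library differed from them in sex. Libraries also differed in makeup within each group. In the controls (libraries 1, 2 and 3 in turn) 37.6%, 30.2% and 21.8% of all counts fell on crystallin genes, and in the mutants 21.7%, 32.2% and 19.5%. The median level of 28 S phase genes was 14.6, 30.8 and 35.5 CPM in the controls and 59.4, 35.7 and 60.5 CPM in the mutants, in the same order. Control library 1 and mutant library 2 were thus the libraries of their groups with most crystallin and least S phase RNA. Macrophage markers summed to 1.18 to 5.10 CPM in controls and to 21.9, 3.14 and 21.5 CPM in mutant libraries 1, 2 and 3.

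The comparison of mutant with control libraries asks how chromatin genes of the transition zone differ between the control and the Pea3 genotype. By edgeR's quasi-likelihood test, 0 of 38 members rose or fell at an adjusted p under 0.05, where 2.22% of all 12257 tested genes did. At an unadjusted p under 0.05 there were 6 members (Arid1b, Hdac2, Smarca5, Hmga2, Hdac3 and Eed), 15.8%, beside 16.2% of all tested genes. Control and mutant values stood apart for 8 members, 5 of them higher and 3 lower in mutants, which is 21.1% beside 22.7% of all tested genes. These shares lie near those of the whole table and are therefore not a result about chromatin genes. The median log2 fold change of the members was 0.11 (quartiles -0.12 and 0.29), and that of all tested genes was 0.0018 (quartiles -0.26 and 0.24). Of the members 23 had positive and 15 had negative log2 fold changes. A difference above 1 in size on the log2 scale was found for 1 member, Hmga2 (2.63%), beside 10.5% of all tested genes.

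DESeq2 and limma voom each called 1 member, the BAF subunit gene Arid1b. DESeq2 called it lower (adjusted p = 0.0371), where it called 6.7% of tested genes, and limma voom called it lower (adjusted p = 0.0221), where it called 6.59%. In the authors' deposited table, which calls 6.11% of the genes it gives an adjusted p, Arid1b is likewise the one member past the threshold, with a log2 fold change of -0.62 and an adjusted p of 0.0442. Hmga2 follows in that table at a log2 fold change of -1.16 and an adjusted p of 0.0554. The sign of the log2 fold change in the authors' deposited table was that of edgeR for all 38 members.

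**Figure D1:**
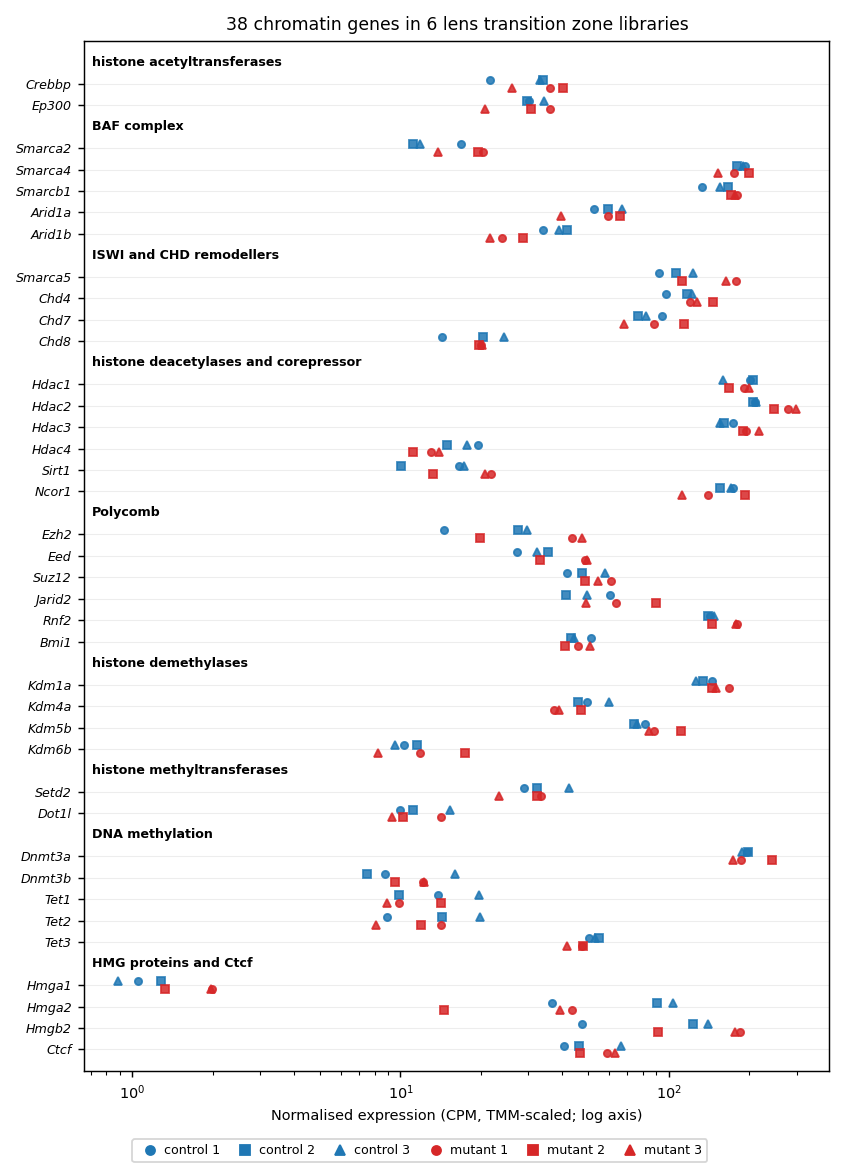
Level of each of the 38 members in each library, in TMM-scaled CPM on a log axis, with control libraries in blue and mutant libraries in red and a symbol for each library number. The groups stand apart for 8 members, namely Smarcb1, Arid1b, Hdac2, Hdac3, Hdac4, Kdm5b, Tet3 and Hmga1. Hmga2, Hmgb2 and Ezh2 spread widely within both groups.

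**Figure D2:**
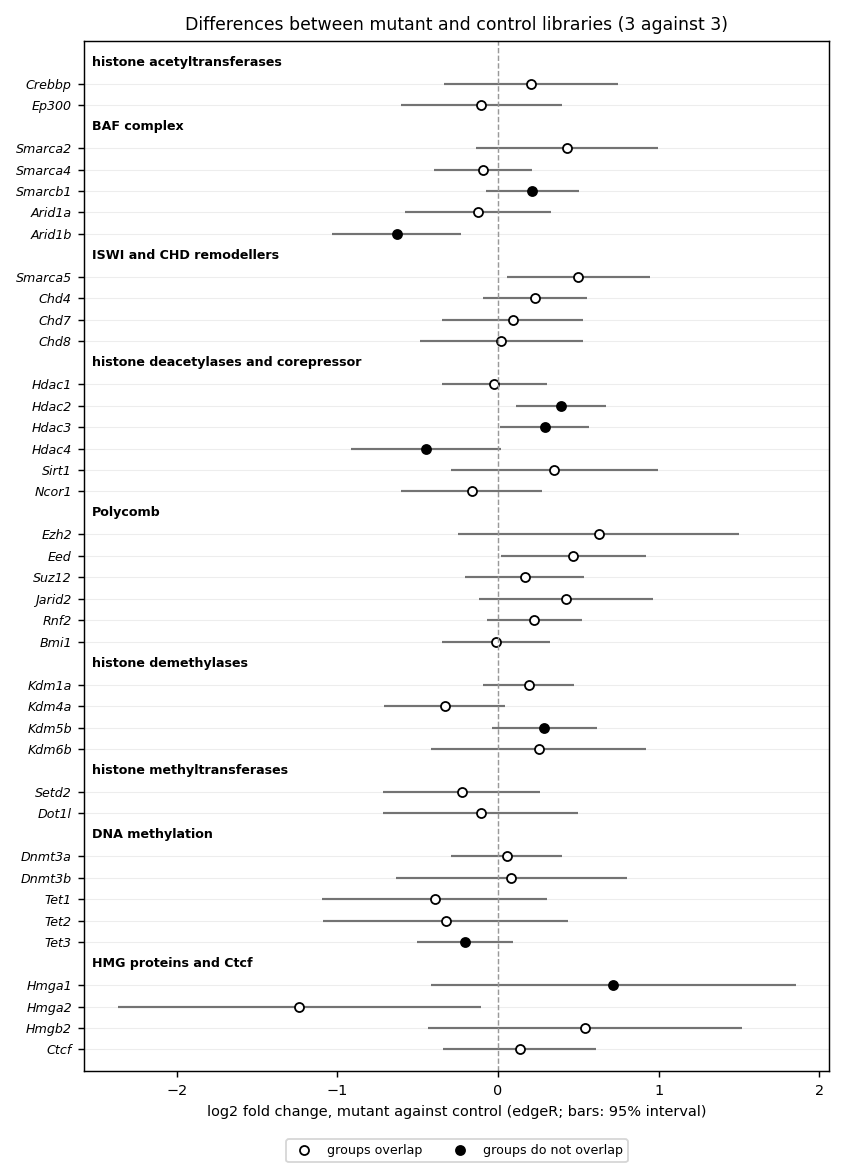
Log2 fold change of each member in mutant against control libraries (edgeR, 3 against 3), with bars for the 95% interval and filled points for the 8 genes whose groups do not overlap. Arid1b and Hmga2 lie farthest to the left with intervals below 0, and no member passed the adjusted threshold.

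Among the 5 BAF genes, Arid1b was lower in mutants in each library, Smarcb1 was slightly higher, and the ATPase genes Smarca4 and Smarca2 overlapped between groups. Arid1b encodes the DNA-binding subunit that takes the place of Arid1a in the canonical BAF complex. It stood at 33.9, 41.6 and 39.1 CPM in control libraries 1, 2 and 3 and at 24.0, 28.7 and 21.5 CPM in mutant libraries 1, 2 and 3. Every mutant library lay below every control library. The group means were 38.2 CPM ± 3.96 and 24.7 CPM ± 3.67 (SD, n = 3), a difference that edgeR put at -0.63 ± 0.18 in log2 (SE; adjusted p = 0.122). The difference was of similar size when any 1 library was left out, between -0.75 and -0.54, with edgeR adjusted p between 0.0650 and 0.339.

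Arid1a, the paralogue, was at 52.8, 59.5 and 66.7 CPM in controls and 59.2, 65.6 and 39.8 CPM in mutants, so that mutant library 3 alone lay below the controls. Its log2 fold change was -0.12 ± 0.20 (SE). The ratio of Arid1b to Arid1a counts within a library does not depend on scaling between libraries. It was 0.642, 0.699 and 0.586 in controls and 0.404, 0.437 and 0.540 in mutants, again without overlap. Smarca4, which encodes the ATPase Brg1, was at 193, 179 and 189.8 CPM in controls and 175, 199 and 153 CPM in mutants. The 95% interval of its log2 fold change ran from -0.40 to 0.21. Smarca2, which encodes the alternative ATPase, was at 16.7, 11.1 and 11.9 CPM in controls and 20.3, 19.4 and 13.8 CPM in mutants, a log2 fold change of 0.43 ± 0.25 (SE). Smarcb1, a core subunit, was at 133, 167 and 155 CPM in controls and 180.4, 171 and 176 CPM in mutants, a separation of 0.21 ± 0.13 on the log2 scale (SE; edgeR adjusted p = 0.455).

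None of the 4 remodeller genes of the ISWI and CHD families passed the threshold. Smarca5, the ISWI ATPase gene, was at 91.8, 107 and 123 CPM in controls and 178, 112 and 164 CPM in mutants. Mutant library 2 fell within the controls, and mutant libraries 1 and 3 lay above all of them. By edgeR it was 0.50 ± 0.19 higher in log2 (SE; adjusted p = 0.257). Chd4, the ATPase of the NuRD complex, was at 97.4, 117 and 122 CPM in controls and 120.5, 147 and 127 CPM in mutants. Chd7, the gene mutated in CHARGE syndrome, and Chd8 had log2 fold changes of 0.09 ± 0.19 and 0.02 ± 0.22 (SE). For Chd8 the mutants were nearly identical, between 19.5 and 20.1 CPM, whereas the controls ran from 14.3 to 24.3 CPM.

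Of the acetyltransferase genes, Crebbp was at 21.5, 34.0 and 33.1 CPM in controls and 36.1, 40.2 and 25.9 CPM in mutants, and Ep300 at 30.2, 29.6 and 34.2 CPM and 36.1, 30.6 and 20.7 CPM. Both overlapped between groups, with log2 fold changes of 0.20 ± 0.24 and -0.11 ± 0.22 (SE).

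The class I deacetylase genes Hdac2 and Hdac3 were higher in each mutant library than in any control, the class IIa gene Hdac4 was lower in each, and none of them passed the threshold. Hdac2 was at 209.9, 206 and 212 CPM in controls and 279, 248 and 297 CPM in mutants. Its controls were the tightest of all members, with a coefficient of variation of 1.36%. The means of 209 CPM ± 2.84 and 274 CPM ± 25.1 (SD, n = 3) stood apart by a margin that edgeR put at 0.39 ± 0.12 in log2 (SE; adjusted p = 0.161). Hdac1, whose product shares complexes with that of Hdac2, overlapped between groups at 201, 206 and 159.5 CPM and at 191, 168 and 199 CPM. Within a library, Hdac2 had 1.04, 0.999 and 1.33 times the counts of Hdac1 in controls and 1.456, 1.476 and 1.495 times in mutants, without overlap.

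Hdac3, the catalytic partner of the NCoR corepressors, was at 174, 161 and 155 CPM in controls and 193, 189.7 and 216 CPM in mutants. The margin was one that edgeR put at 0.29 ± 0.12 in log2 (SE; adjusted p = 0.286). Ncor1, which encodes one of those corepressors, varied in the mutants (139.7, 192 and 113 CPM) more than in the controls (173, 155 and 170.3 CPM). Hdac4, which encodes a signal-responsive class IIa deacetylase, was at 19.4, 14.9 and 17.7 CPM in controls and 13.05, 11.1 and 13.9 CPM in mutants, a difference that edgeR put at -0.45 ± 0.20 in log2 (SE; adjusted p = 0.327). Sirt1, the gene of an NAD-dependent deacetylase, overlapped at 10.1 to 17.2 CPM and 13.2 to 21.8 CPM.

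Positive log2 fold changes were found for 5 of 6 Polycomb genes (83.3%), beside 50.2% of all tested genes, with a median of 0.32. None passed the threshold. In a wider list of other Polycomb genes, 11 of 20 tested were positive (median 0.070). Ezh2, the methyltransferase of Polycomb repressive complex 2 (PRC2), was at 14.6, 27.5 and 29.7 CPM in controls and 43.5, 19.8 and 47.5 CPM in mutants. Control library 1 and mutant library 2 were low, and the other libraries stood apart by group. Its log2 fold change of 0.63 ± 0.38 had an interval from -0.25 to 1.502 (SE and 95%; edgeR adjusted p = 0.465). Without mutant library 2 the difference was 0.92, without control library 1 it was 0.37, and a crystallin share term in the fit left 0.15.

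The PRC2 scaffold gene Eed was also lowest of its group in control library 1 and mutant library 2, at 27.2, 35.4 and 32.3 CPM in controls and 48.6, 33.2 and 49.4 CPM in mutants (log2 difference 0.47 ± 0.20 (SE); adjusted p = 0.292 by edgeR). Suz12, the further core subunit, was at 41.9, 47.3 and 57.6 CPM in controls and 61.1, 48.9 and 54.7 CPM in mutants. Jarid2, an accessory subunit, ran another way, since mutant library 2 was its highest library (89.8 CPM) and the remaining 5 lay between 41.2 and 63.7 CPM. In the PRC1 complex, the ubiquitin ligase gene Rnf2 was at 142, 139.9 and 148 CPM in controls and 179, 145 and 178 CPM in mutants. Its partner gene Bmi1 was level, at 43.4 to 51.4 CPM and 41.1 to 50.7 CPM, with a log2 fold change of -0.01 ± 0.15 (SE).

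None of the 4 histone demethylase genes passed the threshold. Kdm5b, which encodes an H3K4 demethylase, was higher in each mutant library (88.2, 111 and 84.2 CPM) than in any control (81.5, 74.1 and 76.1 CPM), a difference that edgeR put at 0.29 ± 0.14 in log2 (SE; adjusted p = 0.365). Kdm1a, the LSD1 gene, was at 127 to 145 CPM in controls and 145 to 168 CPM in mutants. Kdm4a, an H3K9 and H3K36 demethylase gene, was at 45.7 to 60.0 CPM and 37.2 to 47.2 CPM, with a log2 fold change of -0.33 ± 0.16 (SE). Kdm6b, an H3K27 demethylase gene, was highest in mutant library 2 (17.4 CPM) and lowest in mutant library 3 (8.23 CPM), with all controls between them. The methyltransferase genes Setd2 (H3K36) and Dot1l (H3K79) overlapped between groups, with log2 fold changes of -0.23 ± 0.21 and -0.11 ± 0.27 (SE).

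In DNA methylation, the de novo methyltransferase gene Dnmt3a was at 196, 198 and 188 CPM in controls and 186, 244 and 174 CPM in mutants (log2 fold change 0.05, 95% interval from -0.29 to 0.40). Dnmt3b was far scarcer, at 7.47 to 15.9 CPM and 9.57 to 12.3 CPM. All 3 Tet genes, whose products oxidise methylcytosine, had negative log2 fold changes. Tet3 was at 50.3, 54.8 and 53.1 CPM in controls and 47.7, 47.7 and 41.6 CPM in mutants, without overlap (log2 difference -0.21 ± 0.13 (SE); adjusted p = 0.481 by edgeR). Tet1 differed by -0.40 ± 0.31 and Tet2 by -0.33 ± 0.33 in log2 (SE), and they spread 1.99-fold and 2.22-fold among the controls alone.

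Hmga2, which encodes an AT-hook protein of embryonic and progenitor cells, was at 36.8, 90.1 and 104 CPM in controls and 43.6, 14.51 and 39.4 CPM in mutants. Control library 1 fell between the mutants, and the other controls lay above all of them. The means were 76.8 CPM ± 35.3 and 32.5 CPM ± 15.7 (SD, n = 3), a difference that edgeR put at -1.24 ± 0.48 in log2 (SE; adjusted p = 0.268). The low library of each group was the one with most crystallin RNA. The crystallin share of counts overlapped between groups, at 21.8% to 37.6% in controls and 19.5% to 32.2% in mutants. All 16 crystallin genes had negative log2 differences (median -0.86, 1 called lower, 4 without overlap). So had all 9 lens fibre markers (median -0.74, 0 called), which include the crystallin genes Cryaa, Crybb3 and Cryba1. With the crystallin share as a covariate, Hmga2 was called lower, at a log2 fold change of -1.84 (edgeR adjusted p = 0.000582). That fit called 6.51% of all tested genes, and Hmga2 was the one member among them. Since crystallin RNA may itself depend on genotype, the fit cannot tell composition and genotype apart. Over the fits that left out 1 library the difference lay between -1.57 and -0.89 and did not pass.

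The 5 markers of lens epithelium summed to 2047 to 3905 CPM in controls and 927 to 2837 CPM in mutants, with none at 0. Most of this sum was the crystallin gene Cryab, at 1828 to 2782 CPM in controls and 652 to 2209 CPM in mutants. Like the sum, these Cryab values are unscaled. In TMM-scaled CPM, 1 of the 5 markers, Cryab, was lower in each mutant library than in any control. Of the 5 markers, 4 were negative in log2 fold change (median -0.66), and Pax6 was positive (0.15). Foxe3, a transcription factor gene of lens epithelium, stood at 51.2, 214 and 283 CPM in controls and 152, 39.7 and 156 CPM in mutants, and Cdh1, the E-cadherin gene, at 38.3, 147 and 235 CPM and 131, 70.3 and 136 CPM. Both were lowest of their group in control library 1 and mutant library 2, as Hmga2 was. The part of epithelial RNA in the Hmga2 difference was not tested. In bulk tissue, fewer cells of a type and less RNA per cell cannot be told apart.

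Hmgb2, which encodes a DNA-bending protein abundant in dividing cells, was at 47.4, 124 and 139.8 CPM in controls and 185, 91.0 and 176 CPM in mutants. Its controls spread 2.95-fold, the widest of any member in that group, and the log2 fold change of 0.54 ± 0.42 (SE) did not pass (edgeR adjusted p = 0.570). In both groups Hmgb2 and Ezh2 were lowest in the library with the lowest S phase median. Between groups, mutant library 2 matched control library 3 in S phase median (35.7 and 35.5 CPM) and had less Hmgb2 (91.0 against 139.8 CPM) and less Ezh2 (19.8 against 29.7 CPM). The median of 28 G2 and M phase genes was lower in that mutant library as well. It stood at 17.4, 39.4 and 50.2 CPM in controls and 73.8, 31.6 and 59.9 CPM in mutants, and the 6 libraries had the same order in this median as in Hmgb2. In log2 the difference was positive for all 28 S phase genes (median 1.08, 1 called higher) and for all 28 G2 and M phase genes (median 0.71, 0 called). The part of proliferation-related RNA in these differences was not tested. Hmga1 was near the limit of counting, with 14 to 21 counts per control library and 16 to 39 per mutant library. After scaling, the mutants (1.32 to 1.98 CPM) lay above the controls (0.887 to 1.28 CPM). Its log2 fold change of 0.72 ± 0.50 (SE), the largest positive one of the members, did not pass (edgeR adjusted p = 0.526). With so few reads its values are uncertain. Ctcf, the gene of the insulator protein that anchors chromatin loops, overlapped between groups at 40.6 to 66.6 CPM and 46.5 to 63.1 CPM.

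**Figure D3:**
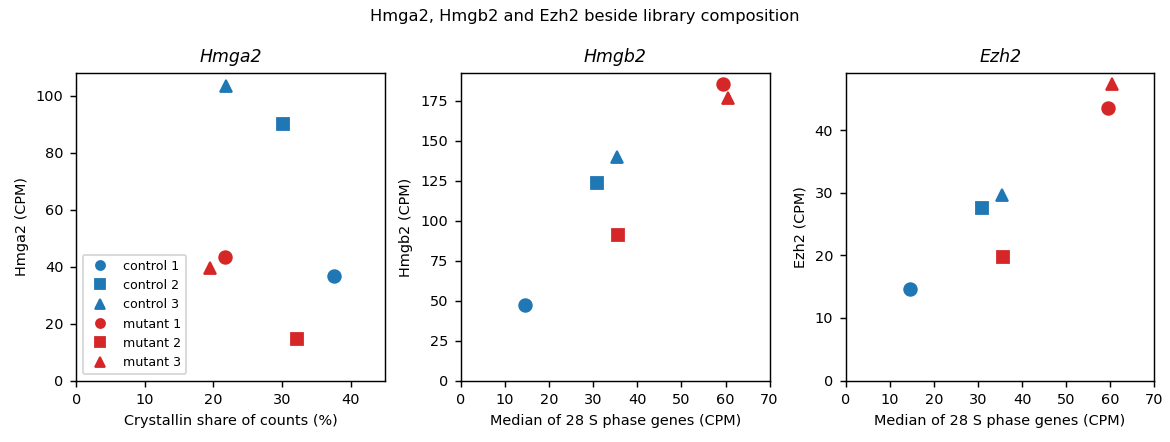
Level of Hmga2 against the crystallin share of counts, and of Hmgb2 and Ezh2 against the median of 28 S phase genes, one point per library (blue controls, red mutants). Hmga2 is lowest of its group in the library with the largest crystallin share, and Hmgb2 and Ezh2 are lowest in control library 1 and highest in mutant libraries 1 and 3.

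Libraries ranked unevenly across the set. Mutant library 1 was the lowest mutant library for 2 of 38 members (5.26%), against 28.6% of all tested genes. Control library 3 was the highest control for 19 members (50.0%), against 36.0% of all tested genes, and the lowest for 6 (15.8% against 34.8%). The members together took 0.212%, 0.268% and 0.325% of counts in controls and 0.356%, 0.271% and 0.330% in mutants, before scaling. The smallest share in each group belonged to the library with the largest crystallin share. Both are shares of the same total counts, so this order is not a separate result about the members.

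**Figure D4:**
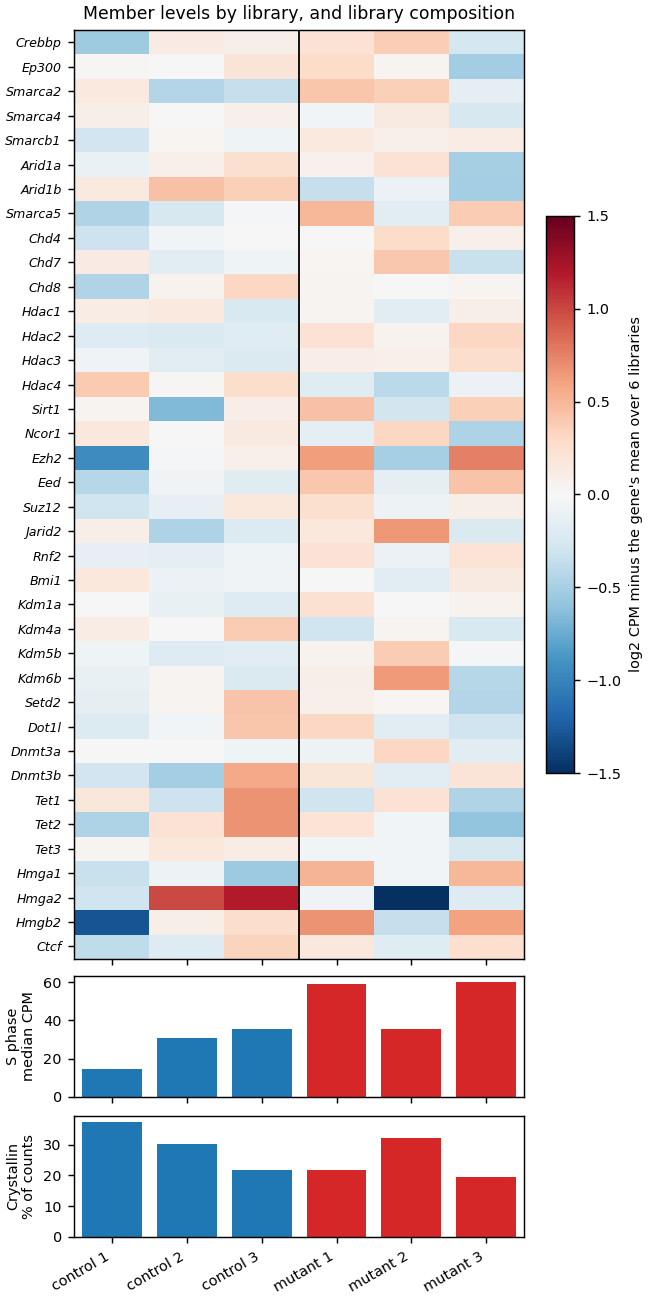
Log2 CPM of each member minus its mean over the 6 libraries (colour, limits at -1.5 and 1.5), above bars for the S phase median in CPM and the crystallin share of counts. Ezh2 and Hmgb2 are low in control library 1, where the S phase median is 14.6 CPM, and Hmga2 is low in mutant library 2.

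Within libraries, 6 ratios of related members were compared; the pairs were chosen with earlier results known. The ratio of Smarca2 to Smarca4 was 0.0870, 0.0619 and 0.0625 in controls and 0.116, 0.0975 and 0.0904 in mutants, without overlap. That of Crebbp to Ep300 was 0.713, 1.15 and 0.969 in controls and 1, 1.32 and 1.26 in mutants, and overlapped. Those of Dnmt3b to Dnmt3a and of Tet2 to Tet3 overlapped widely, with means of 0.0557 and 0.0584, and of 0.270 and 0.248. By an exact two-sided permutation test on log2 ratios, p was 0.1 for Smarca2 to Smarca4, for Arid1b to Arid1a and for Hdac2 to Hdac1. This is the smallest value that 3 libraries against 3 allow, and it became 0.2 after Benjamini-Hochberg adjustment over the 6 ratios. For the other ratios the exact p was 0.2 to 0.9.

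**Figure D5:**
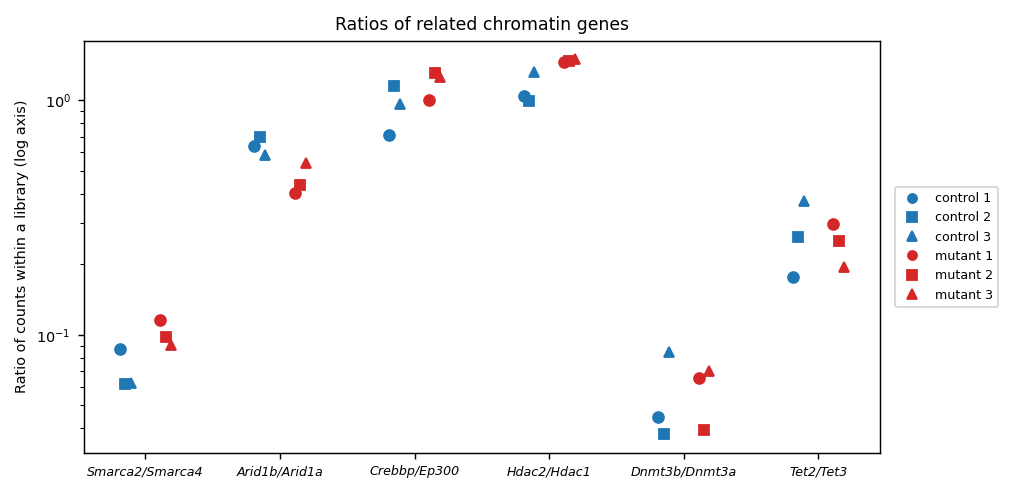
Ratio of counts of 6 pairs of related genes within each library, on a log axis, with controls in blue and mutants in red. The groups stand apart for Smarca2 to Smarca4, Arid1b to Arid1a and Hdac2 to Hdac1.

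Per kilobase of annotated exon, the class I deacetylase genes led the set in controls, while Hdac4 (rank 34 of 38) and Sirt1 (rank 27) were lower. The length joined the exons of all annotated transcripts of a gene, and which transcripts were present was not measured. Ranks and ratios between genes are therefore approximate and could change with other lengths. Hdac1 was highest at 54.8 CPM per kb ± 7.43, followed by Hdac2 at 46.7 ± 0.636 and Hdac3 at 40.3 ± 2.38 (SD, n = 3). Hdac1 and Hdac2 did not differ beyond their spread, since Hdac1 reached down to the level of Hdac2 in control library 3. In mutants Hdac2 was first at 61.3 CPM per kb ± 5.60, and Hdac1 next at 54.0 ± 4.70. Rnf2 at 34.7 ± 0.984 and Hmgb2 at 34.5 ± 16.4 came next in controls, the latter with a spread that covers its neighbours. Smarca4 had 28.9 CPM per kb and Smarca2 had 0.928, Dnmt3a 11.7 and Dnmt3b 2.10, and Arid1a 5.20 and Arid1b 3.03. At the low end were Smarca2, Tet2 (0.848) and Hmga1 (0.503). Hmga2 went from rank 14 of 38 in controls to rank 22 in mutants, at 11.3 ± 5.22 and 4.80 ± 2.32 CPM per kb.

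A wider list held 175 other chromatin genes. Of the 174 found, 167 were tested, and 1 rose while 0 fell by edgeR, which called 2.22% of all tested genes. The median in log2 was 0.013, with 17 genes (10.2%) at an unadjusted p under 0.05 beside 16.2% of all tested genes. The gene that rose was Hat1, which encodes the acetyltransferase of newly made histone H4. It was at 63.6, 84.8 and 76.7 CPM in controls and 153, 114 and 141 CPM in mutants, above every control in each mutant library (log2 difference 0.86 ± 0.16 (SE); adjusted p = 0.0353 by edgeR). Hat1 was lowest of its group in control library 1 and mutant library 2, those with the lowest S phase medians, and the part of S phase RNA was not tested. The remaining lists had no gene past the threshold: other BAF subunits (19 tested), other ISWI, CHD and INO80 remodellers (16), other deacetylase complexes and sirtuins (28), other Polycomb genes (20), other histone methyltransferases (26), other demethylases (14), other DNA methylation genes (8) and chromatin architecture genes (21). The difference was negative for 11 of 14 genes of the demethylase list (median -0.15 in log2) and positive for 17 of 21 of the architecture list (median 0.13), where 50.2% of all tested genes were positive. The demethylase list holds the Y-linked genes Kdm5d and Uty, which had its lowest values (-0.78 and -0.63 in log2); in mutant library 1, which differed in sex, they were at 0.152 and 0.102 CPM, and in the others between 16.5 and 49.6 CPM.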

How the data were processed

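The deposited files hold unnormalized whole-number read counts by gene symbol for 3 control and 3 mutant libraries; per-library files and the series table did not differ (0 differing values). Per the submitters' processing notes, bcl2fastq 1.8.4, TopHat, Cufflinks, DESeq and build mm9 were used, with no roles given; counter, annotation and strand setting were not stated there. Per the labels' protocols, cDNA came from a SMART-seq ultra-low input kit, which does not mark strand, so overlapping genes may share reads. The deposited table of the authors' comparison gives a mean normalized signal, log2 fold changes, a test score, and p-values. Counts were fitted with edgeR 4.0.16 in R 4.3.3 (filterByExpr with minimum count 10 and total 15, TMM, robust quasi-likelihood F test, no covariates), with Benjamini-Hochberg adjustment over all 12257 tested genes and a threshold of 0.05. CPM are TMM-scaled, except that those of crystallin and marker sums and of the single genes Cryaa and Cryab are unscaled. Standard errors and 95% intervals derive from the F statistic. The fit was tested on simulated counts. Libraries of a group differed beyond counting noise, with chi-square over its degrees of freedom at 28.1 to 137. Levels per kilobase use GENCODE M21 exon unions. DESeq2 1.42.0, limma 3.58.1 voom with quality weights and 12 further alternatives were tried. Named genes are all members, called genes of the wider lists (up to 4 per list, in order of p), defining markers of cell types and the targeted genes; Xist and Ddx3y served as checks. The members, lists, gene pairs, motifs and printed promoters were chosen with earlier results of these data known.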

Additional observations from a re-analysis of the deposited data

How the results depend on the processing

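No member passed the threshold in the main edgeR fit or in the 6 fits that left out 1 library each. DESeq2 and limma voom each called 1 member (Arid1b), as did the fit with the crystallin share as a covariate (Hmga2). Over the 14 alternatives the adjusted p of Arid1b ran from 0.0221 to 0.339 and that of Hmga2 from 0.000582 to 0.474. Of all tested genes, edgeR called 272, DESeq2 821, limma voom 808, the covariate fit 798 and the replicate block 122. Leaving out 1 library gave 91 (without mutant library 3) to 479 (without mutant library 2). Deviations from the group mean had correlations of -0.28, -0.15 and 0.22 between same-numbered libraries, and of 0.41 between control library 1 and mutant library 2. The latter libraries had most crystallin RNA of their groups, so these values cannot settle whether the numbers pair libraries. The replicate block called 0 members. The cause of these changes was not tested.

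The sign was the same under every alternative for 26 members and reversed under at least 1 for 12, none with a main value beyond 0.25 (Kdm6b) in size. Under limma voom it reversed for Chd8 (-0.0062), Bmi1 (0.057), Dot1l (0.027) and Dnmt3a (-0.031), and with the covariate for Chd8 (-0.11), Hdac1 (0.0049), Dnmt3b (-0.13) and Ctcf (-0.069). Leaving out 1 library moved the log2 fold change of Ep300 from -0.29 to 0.092, of Arid1a from -0.27 to 0.065, of Chd7 from -0.11 to 0.26, of Chd8 from -0.16 to 0.20, of Hdac1 from -0.13 to 0.045 and of Ncor1 from -0.40 to 0.00046. For Bmi1 it ran from -0.087 to 0.069, for Kdm6b from -0.058 to 0.48, for Dot1l from -0.32 to 0.093, for Dnmt3a from -0.11 to 0.15, for Dnmt3b from -0.12 to 0.48 and for Ctcf from -0.0067 to 0.37. With 3 libraries a group, the median standard error of a member was 0.20 on the log2 scale. Hmga1 left the test under the filter of 5 CPM in 3 libraries.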

Other observations

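The following genes of the wider lists were chosen after their values were seen, and none passed the threshold. Among the other DNA methylation genes, the groups did not overlap for 7 of 8 tested, 4 of them higher and 3 lower in mutants, beside 22.7% of all tested genes. Dnmt1, the maintenance methyltransferase gene, was at 39.7, 54.3 and 57.2 CPM in control libraries 1, 2 and 3 and 117, 63.3 and 90.9 CPM in mutant libraries 1, 2 and 3 (log2 fold change 0.85 ± 0.24 (SE); edgeR adjusted p = 0.130). Uhrf1, whose product brings Dnmt1 to newly copied DNA, was at 32.3, 69.9 and 94.1 CPM in controls and 182, 94.4 and 152 CPM in mutants (log2 fold change 1.13 ± 0.39 (SE); edgeR adjusted p = 0.218). Mbd4 (log2 fold change 1.012 ± 0.34 (SE)) and Uhrf2 (0.26 ± 0.13) were the other higher genes. The lower ones were Gadd45b (-1.69 ± 0.62), the largest difference of the list, Gadd45a (-0.66 ± 0.30) and Mbd1 (-0.38 ± 0.18), with edgeR adjusted p from 0.232 to 0.355. In the deacetylase list, Rbbp7, which encodes a histone chaperone and the partner of Hat1, was at 233, 239.9 and 218 CPM in controls and 364, 302 and 361 CPM in mutants (log2 fold change 0.57 ± 0.13 (SE); edgeR adjusted p = 0.0659). Mutant library 2, the mutant with the lowest S phase median, was the lowest mutant library for Dnmt1, Uhrf1 and Rbbp7. Control library 1, the control with the lowest S phase median, was the lowest control for Dnmt1 and Uhrf1. For Rbbp7 the lowest control was library 3, which had the highest S phase median of the controls. The part of S phase RNA was not tested.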
